A study of Mus musculus with 6 samples.

Results

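The 10 feedback genes of the ERK pathway described here are Dusp4, Dusp5, Dusp6, Spry1, Spry2, Spry4, Spred1, Spred2, Etv4 and Etv5. They were taken by gene symbol from the annotated rows of the deposited comparison tables, and all 10 were found among the 27179 gene IDs of the count files. RNA was sequenced from H7 tumours, UNKC tumours and normal whole pancreas of C57BL/6 mice, with 2 libraries per group. H7 tumours grew from PANC02-H7 cells and UNKC tumours from UN-KC-6141 cells, each placed surgically in the pancreas of C57BL/6 mice and collected after 20 days, with no drug given to the mice. Both are cultured mouse pancreatic cancer lines, so each tumour group stands for 1 line and not for pancreatic cancer at large. PANC02-H7 is a metastatic subline of Panc02, which arose from a chemically induced tumour, and UN-KC-6141 was derived from a genetically engineered mouse that develops pancreatic tumours. The host keeps its immune system and stroma, and the samples are whole tissue. Age and sex of the mice, and whether the 2 samples of a group came from separate animals, are not stated, so the p-values measure the spread between these samples, which may be technical.

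Growth factor receptors activate RAS, RAF, MEK and then ERK, a kinase that enters the nucleus and switches on transcription. Part of what it switches on restrains the same pathway, and the mRNA of these genes is widely read as a trace of recent ERK activity. DUSP4, DUSP5 and DUSP6 are phosphatases that remove the activating phosphates from MAP kinases, DUSP6 in the cytoplasm and DUSP4 and DUSP5 in the nucleus. Sprouty proteins (SPRY) act between the receptor and RAF, and SPRED proteins bring the RAS inhibitor neurofibromin to the membrane. ETV4 and ETV5 are ETS transcription factors that carry the signal on rather than block it, and their genes respond to FGF and RAS signalling in many tissues.

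Factors that respond to ERK can act at the start of a gene, among other places, and only start sites were searched here. Windows around the RefSeq start sites of 7 of the 10 genes were searched for motifs, 8 windows in all. The rest of the 10 genes were not searched, so the motif counts below do not cover them. The 250 bases upstream of the start are shown for 3 phosphatase and Sprouty genes that had different patterns between the tumours, Dusp5 (lower in H7), Dusp6 (near equal) and Spry1 (higher in H7). The sequences are from RefSeq on GRCm38.p6 and run 5′ to 3′ towards the gene, and capitals mark the CArG boxes, the binding motif of serum response factor.
Dusp5, chr19:53528895-53529144, plus strand: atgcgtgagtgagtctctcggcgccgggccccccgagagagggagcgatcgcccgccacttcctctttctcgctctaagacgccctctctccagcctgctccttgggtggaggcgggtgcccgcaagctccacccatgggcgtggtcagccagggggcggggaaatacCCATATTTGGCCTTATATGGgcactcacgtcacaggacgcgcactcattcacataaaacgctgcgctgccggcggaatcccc
Dusp6, chr10:99262981-99263230, plus strand: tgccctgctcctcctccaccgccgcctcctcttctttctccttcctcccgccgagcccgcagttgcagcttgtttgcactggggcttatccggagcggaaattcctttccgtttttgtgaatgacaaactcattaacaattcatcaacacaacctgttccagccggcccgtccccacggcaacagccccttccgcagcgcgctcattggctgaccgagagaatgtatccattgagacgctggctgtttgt
Spry1, chr3:37639697-37639946, plus strand: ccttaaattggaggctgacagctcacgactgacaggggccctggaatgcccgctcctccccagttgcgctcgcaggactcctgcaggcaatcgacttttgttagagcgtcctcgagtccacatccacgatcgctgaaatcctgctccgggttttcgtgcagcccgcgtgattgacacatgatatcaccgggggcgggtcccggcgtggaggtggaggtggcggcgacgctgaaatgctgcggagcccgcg
The Dusp5 sequence holds a pair of adjoining CArG boxes, at -82 to -73 and at -72 to -63 from the start, and the other 7 windows hold none. Of 32851 windows of the same length over all genes, 1.63% hold a CArG box. The ETS-type motif CCGGAA was in 1 of the 8 windows (Spry2, 33 to 38 bases after the start) and in 14.9% of all windows. The motifs TGACGTCA (0 of 8, 1.79% of all windows) and TGANTCA (0 of 8, 7.81%), bound by CREB and AP-1 factors, were not found. All motifs were searched on both strands, and a match describes letters in the window, not a site in use.

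Reads counted in genes numbered 33332516 and 36307030 in the H7 libraries, 40507546 and 38728423 in the UNKC libraries, and 12077320 and 8204225 in the normal libraries. Ribosomal RNA took 24.6% to 27.8% of the reads in H7, 20.1% to 21.2% in UNKC and 85.0% to 86.4% in normal pancreas. In normal pancreas Lars2 took 685372 reads in the first library and 10416 in the second, and 1 unnamed gene took 181888 and 517367. Without ribosomal RNA, Lars2 and that unnamed gene, 23880939 to 31828387 reads remained in a tumour library, and 699044 and 780777 in the normal ones. Normal pancreas was therefore measured at far lower depth, and the 10 genes together held 84 and 111 reads in its libraries. Levels are given as CPM, counts scaled to the effective library size, and the normal libraries were less alike across genes (r = 0.802) than those of H7 (0.967) or UNKC (0.949). Normal pancreas had the acinar genes of its label (6 genes, summed 6102 to 6527 CPM), against 26.0 to 32.1 CPM in H7 and 3.08 to 9.43 CPM in UNKC. The second library of both tumours also held skeletal muscle RNA, with 6 muscle genes summing to 485 CPM in H7 and 1781 CPM in UNKC, against 1.30 and 0.930 CPM in the first libraries and 2.39 to 6.94 CPM in normal pancreas. In whole tissue, fewer cells of a type and less RNA per cell cannot be told apart.

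Against normal pancreas, the feedback genes were mostly higher in both tumours. In H7 tumours 8 of the 10 rose and 0 fell, where 29.6% of all 16306 tested genes rose and 21.9% fell (51.5% in either direction). Spry4 and Spred2 did not pass. In UNKC tumours 10 of 10 rose, where 29.1% of all genes rose and 19.3% fell (48.5% together). All 10 passed the filter on low counts. The test was edgeR's quasi-likelihood test with Benjamini-Hochberg adjustment over all tested genes at a threshold of 0.05, which also gave every adjusted p below unless another source is named. The median log2 fold change of the 10 genes was 2.08 in H7 and 3.08 in UNKC, and that of all tested genes was 0.34 and 0.42. Both H7 libraries were above both normal libraries for 9 of the 10 genes (47% of all genes; 29.9% were below), with Spry4 as the exception. Both UNKC libraries were above for 10 of 10 (48.3% of all genes; 28.3% were below). Both comparisons use the same normal libraries. Over all genes the balance depended on the scaling: 4832 rose and 3568 fell in H7 and 4752 and 3150 in UNKC. With upper-quartile factors 3751 rose and 4391 fell in H7, while in UNKC 3722 rose and 3977 fell. Total-count scaling, in which ribosomal reads count in full towards library size, moved the median of all genes by 3.29 in H7 and 3.36 in UNKC.

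Set directly against each other, the tumours differed in this programme. In H7 relative to UNKC, 5 of the 10 genes were lower (Dusp4, Dusp5, Spry2, Spry4 and Etv4) and 1 was higher (Spry1), where 11.1% of all genes were lower and 7.14% higher (18.3% together). Both H7 libraries were below both UNKC libraries for 8 of the 10 genes (35.9% of all genes) and above them for 1 (34.5%), and for Dusp6 the libraries overlapped. The median log2 fold change of the 10 genes was -0.83, and that of all tested genes -0.02. The count of 5 depended on single libraries, and the number of all genes called also moved when 1 library was left out. Of the 6 fits with 1 library left out, the call ended in 4 for Spry2 and 4 for Spry4. It ended in 3 for Dusp5, 3 for Etv4 and 1 for Dusp4, and in 0 for Spry1. Over those fits the log2 fold change in H7 relative to UNKC ranged from -2.88 to -2.40 for Dusp4 and -1.76 to -1.34 for Dusp5. The ranges were -1.74 to -1.19 for Spry2, -1.17 to -0.88 for Spry4, -1.95 to -1.83 for Etv4 and 1.51 to 1.76 for Spry1. With the second library of both tumours left out, as an alternative added after seeing the data, 0 members and 0 of 15969 genes passed in any comparison, with 1 residual degree of freedom in that fit. At an unadjusted p under 0.05, 7, 8 and 2 members then passed in H7 against normal, UNKC against normal and H7 against UNKC, where 38.4%, 37% and 14.5% of all genes did. The 2 of 10 between the tumours is near the share of all genes.

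**Figure D1:**
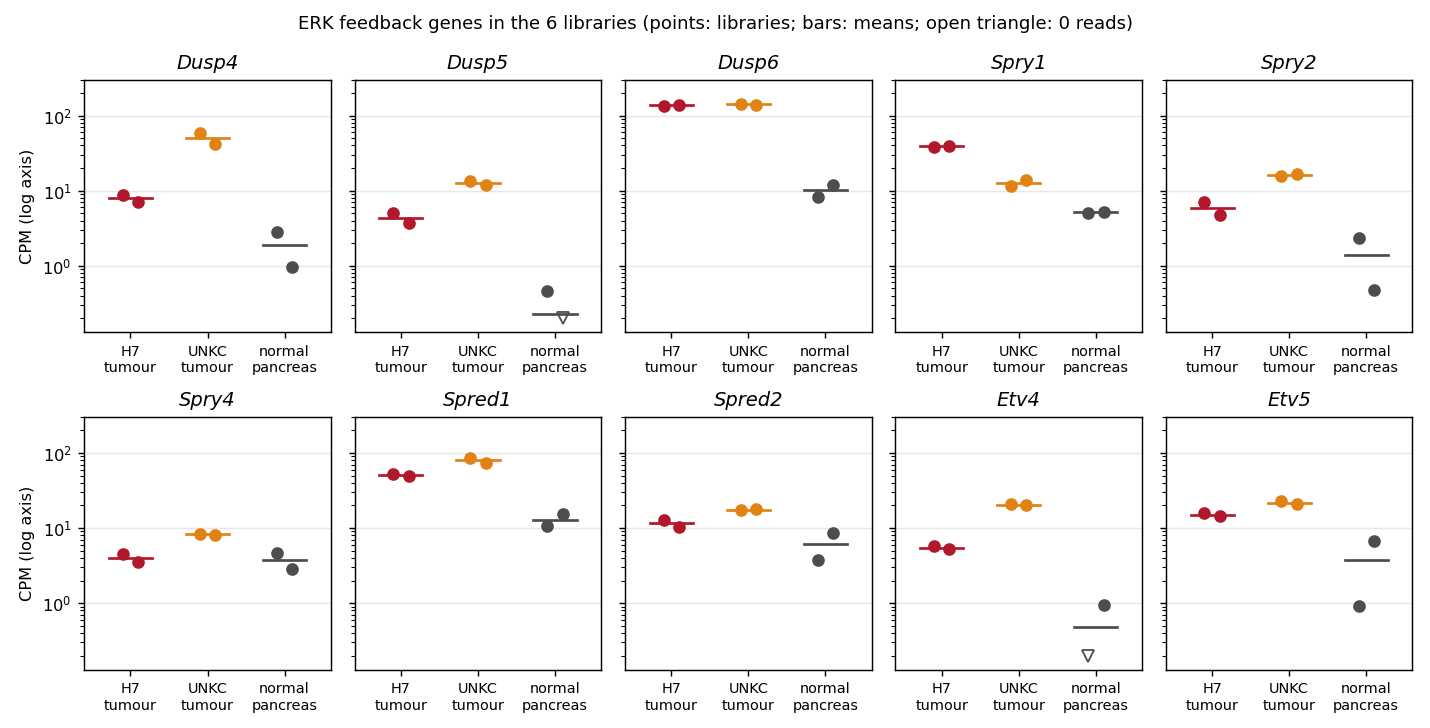
Level of each of the 10 feedback genes in CPM (log axis) in H7 tumours, UNKC tumours and normal pancreas. Points are libraries (n = 2 each), bars are group means, and an open triangle marks a library with 0 reads; Dusp6 is level between the tumours, Spry1 is higher in H7, and Dusp4 and Etv4 are lower in H7 than in UNKC.

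The phosphatase genes moved to different extents. Dusp6 (gene ID 67603, GRCm38 chr10:99263231-99267489), whose product is selective for ERK, had 135.8 and 138.2 CPM in H7 and 143.5 and 137.9 CPM in UNKC, against 8.33 and 11.9 CPM in normal pancreas. Every tumour library was far above both normal libraries, and the tumours overlapped. The log2 fold change was 3.76 ± 0.19 (SE) in H7 (adjusted p = 0.000136) and 3.80 ± 0.19 in UNKC (adjusted p = 0.000143) against normal pancreas. Between the tumours it was -0.04 ± 0.16 (adjusted p = 0.902), with a 95% interval of -0.42 to 0.34, so a difference within that range was not resolved with 2 libraries per group.

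Dusp4 (319520, chr8:34807610-34819894), a nuclear phosphatase with ERK, JNK and p38 among its substrates, showed the widest gap between the tumours among the 10 genes. It had 8.66 and 7.11 CPM in H7 and 58.1 and 41.7 CPM in UNKC, against 2.78 and 0.954 CPM in normal pancreas, where it was counted on 6 and 2 reads. The 3 groups did not overlap, in the order UNKC, H7, normal. In H7 relative to UNKC the log2 fold change was -2.66 ± 0.29 (95% interval -3.37 to -1.95, adjusted p = 0.00312), a level 0.158 times that of UNKC. Against normal pancreas it was 2.07 ± 0.43 in H7 (adjusted p = 0.00875) and 4.73 ± 0.41 in UNKC (adjusted p = 0.000389). Which normal library was kept moved these values, to 3.07 in H7 and 5.73 in UNKC without Normal replicate 1 and to 1.54 and 4.199 without Normal replicate 2.

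Dusp5 (240672, chr19:53529145-53541809), a nuclear phosphatase selective for ERK, had 5.04 and 3.71 CPM in H7 and 13.6 and 11.9 CPM in UNKC. In normal pancreas it was at 0.463 and 0 CPM, on 1 read and 0 reads. Counted as fragments, the normal libraries held 1 in all, so the folds are wide: 8.98 (95% counting interval 1.60 to 356) for H7 and 26.1 (4.68 to 1033) for UNKC. On reads, the edgeR log2 fold change against normal pancreas was 4.21 ± 0.86 in H7 (adjusted p = 0.00527), or 18.45-fold. In UNKC it was 5.75 ± 0.76 (adjusted p = 0.000875), or 53.8-fold. Both were above the folds from fragments, and all rest on 1 read or fragment in normal pancreas. The log2 fold change in H7 relative to UNKC was -1.54 ± 0.34 (95% interval -2.33 to -0.76, adjusted p = 0.0196). The normal libraries do not enter that difference itself, but they do enter the estimate of the spread behind its SE and p-value. Exons of Dusp5 overlap those of an antisense gene, AC137853.2, and since no source used here states the library strand, reads of the pair cannot be told apart.

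Within a library, the ratio of 2 genes does not depend on the scaling of that library. Reads per kilobase of Dusp4 relative to Dusp6 were 0.0735 and 0.0593 in H7, against 0.467 and 0.349 in UNKC. For Dusp5 relative to Dusp6 the ratios were 0.0899 and 0.0650 in H7, against 0.230 and 0.209 in UNKC. The nuclear phosphatase genes were thus lower relative to the cytoplasmic one in both H7 libraries than in either UNKC library.

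Among the Sprouty genes, Spry1 went one way between the tumours and Spry2 and Spry4 the other. Spry1 (24063, chr3:37639947-37644599) had 38.7 and 39.8 CPM in H7 and 11.5 and 13.9 CPM in UNKC, against 5.09 and 5.25 CPM in normal pancreas. The groups did not overlap, and H7 was the highest. Spry1 in H7 relative to UNKC had a log2 fold change of 1.63 ± 0.16 (95% interval 1.24 to 2.01, adjusted p = 0.00219), or 3.09-fold. Against normal pancreas it was 2.92 ± 0.20 in H7 (adjusted p = 0.000196) and 1.30 ± 0.20 in UNKC (adjusted p = 0.00288). Spry1 also passed in the comparison of the tumours with any 1 library left out (adjusted p from 0.00309 to 0.0400). Its exons overlap Gm42922, an unclassified transcript on the opposite strand, whose reads cannot be told apart here.

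Spry2 (24064, chr14:105891947-105896819), the most studied Sprouty in epithelia, had 7.13 and 4.81 CPM in H7 and 15.8 and 16.9 CPM in UNKC, against 2.31 and 0.477 CPM in normal pancreas (5 reads and 1 read). H7 lay between UNKC and normal pancreas with no overlap. Spry2 in H7 relative to UNKC had a log2 fold change of -1.45 ± 0.33 (95% interval -2.26 to -0.65, adjusted p = 0.0310). Against normal pancreas it was 2.08 ± 0.56 in H7 (adjusted p = 0.0210) and 3.54 ± 0.53 in UNKC (adjusted p = 0.00236). The call in H7 ended without H7 replicate 1 (adjusted p = 0.0763) and with the authors' fragment counts (adjusted p = 0.0865). It was 3.67 in H7 and 5.11 in UNKC without Normal replicate 1, and 1.40 and 2.85 without Normal replicate 2.

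Spry4 (24066, chr18:38586247-38601347) had 4.45 and 3.58 CPM in H7 and 8.42 and 8.02 CPM in UNKC, against 4.63 and 2.86 CPM in normal pancreas, on 10 and 6 reads. H7 and normal pancreas overlapped, and UNKC was above both. The log2 fold change of H7 against normal pancreas was 0.10 ± 0.34 (95% interval -0.73 to 0.92, adjusted p = 0.829), and its sign turned with the scaling, at -0.27 with upper-quartile factors. In UNKC against normal pancreas it was 1.13 ± 0.33 (adjusted p = 0.0312), a call that ended with upper-quartile scaling (adjusted p = 0.113) and with any 1 library other than Normal replicate 1 left out (adjusted p from 0.0514 to 0.116). In H7 relative to UNKC it was -1.03 ± 0.24 (95% interval -1.63 to -0.44, adjusted p = 0.0357).

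The balance within the family reversed between the tumours. Reads per kilobase of Spry2 relative to Spry1 were 0.220 and 0.144 in H7, against 1.64 and 1.45 in UNKC. Those of Spry4 relative to Spry1 were 0.0624 and 0.0488 in H7, against 0.396 and 0.314 in UNKC. Spry1 was therefore the leading Sprouty mRNA in both H7 libraries and Spry2 in both UNKC libraries.

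**Figure D2:**
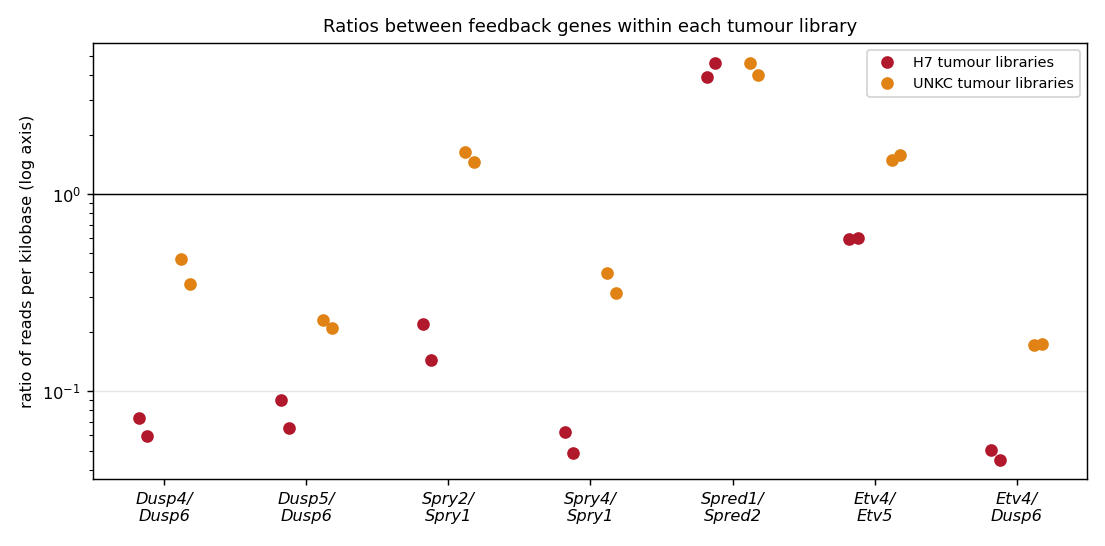
Ratio of reads per kilobase of 2 feedback genes within each library (log axis), for H7 and UNKC libraries (points, n = 2 each). Spry2 over Spry1 lies at 0.220 and 0.144 in H7 and above 1 in UNKC, while Spred1 over Spred2 overlaps between the tumours.

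Spred1 rose in both tumours and Spred2 in UNKC, and neither passed the test between the tumours. Spred1 (114715, chr2:117121071-117182279) had 52.3 and 50.02 CPM in H7 and 84.5 and 74.2 CPM in UNKC, against 10.6 and 15.3 CPM in normal pancreas. The 3 groups did not overlap. Against normal pancreas the log2 fold change was 1.98 ± 0.20 in H7 (adjusted p = 0.000611) and 2.62 ± 0.20 in UNKC (adjusted p = 0.000294). Between H7 and UNKC it was -0.63 ± 0.17 (95% interval -1.06 to -0.21), which did not pass (adjusted p = 0.0558). DESeq2 put the same gap at -0.60 and called it (adjusted p = 4.58e-05).

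Spred2 (114716, chr11:19924442-20024026) had 12.8 and 10.4 CPM in H7 and 17.5 and 17.8 CPM in UNKC, against 3.70 and 8.59 CPM in normal pancreas. No groups overlapped, though the normal libraries differed widely, on 8 and 18 reads. Against normal pancreas the log2 fold change was 0.92 ± 0.35 in H7 (adjusted p = 0.0730) and 1.53 ± 0.35 in UNKC (adjusted p = 0.0137). Spred2 in H7 passed without Normal replicate 2 (1.68, adjusted p = 0.00429) and in DESeq2 (0.77, adjusted p = 0.0481), and in UNKC the call ended without UNKC replicate 1 (adjusted p = 0.0505). Set against UNKC, H7 was at -0.61 ± 0.28 (95% interval -1.30 to 0.09, adjusted p = 0.207), and DESeq2 called it at -0.57 (adjusted p = 0.0211). The ratio of Spred1 to Spred2 in reads per kilobase was 3.92 and 4.61 in H7, against 4.64 and 3.99 in UNKC, so this pair kept overlapping proportions.

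The ETS factor genes also parted. Etv4 (18612, chr11:101769747-101785310) had 5.74 and 5.20 CPM in H7 and 20.7 and 20.1 CPM in UNKC, against 0 and 0.954 CPM in normal pancreas. The groups did not overlap, and replicates of each tumour lay close together. Etv4 in H7 relative to UNKC had a log2 fold change of -1.90 ± 0.38 (95% interval -2.79 to -1.01, adjusted p = 0.0139), a level 0.268 times that of UNKC. The normal libraries held 1 fragment in all, which gives folds of 11.6 (95% counting interval 2.08 to 461) for H7 and 43.8 (7.85 to 1731) for UNKC.

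Etv5 (104156, chr16:22381313-22439570), the close relative of Etv4, had 15.8 and 14.2 CPM in H7 and 22.8 and 20.9 CPM in UNKC, against 0.926 and 6.68 CPM in normal pancreas (2 and 14 reads). Both tumours were above both normal libraries, which were far apart. Against normal pancreas the log2 fold change was 1.99 ± 0.56 in H7 (adjusted p = 0.0270) and 2.53 ± 0.56 in UNKC (adjusted p = 0.0115). Relative to UNKC, H7 was at -0.54 ± 0.42 (95% interval -1.56 to 0.48, adjusted p = 0.445). The H7 call against normal pancreas ended without H7 replicate 1 (adjusted p = 0.105) and without H7 replicate 2 (adjusted p = 0.0845). Its value was 1.195 in H7 and 1.73 in UNKC without Normal replicate 1, and 4.05 and 4.59 without Normal replicate 2.

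Etv4 relative to Etv5, in reads per kilobase, was 0.594 and 0.597 in H7, against 1.48 and 1.57 in UNKC. Relative to Dusp6, Etv4 was 0.0506 and 0.0450 in H7, against 0.172 and 0.174 in UNKC. As with Spry1 and Spry2, the leading gene of the pair changed, Etv5 being ahead in both H7 libraries and Etv4 in both UNKC libraries.

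**Figure D3:**
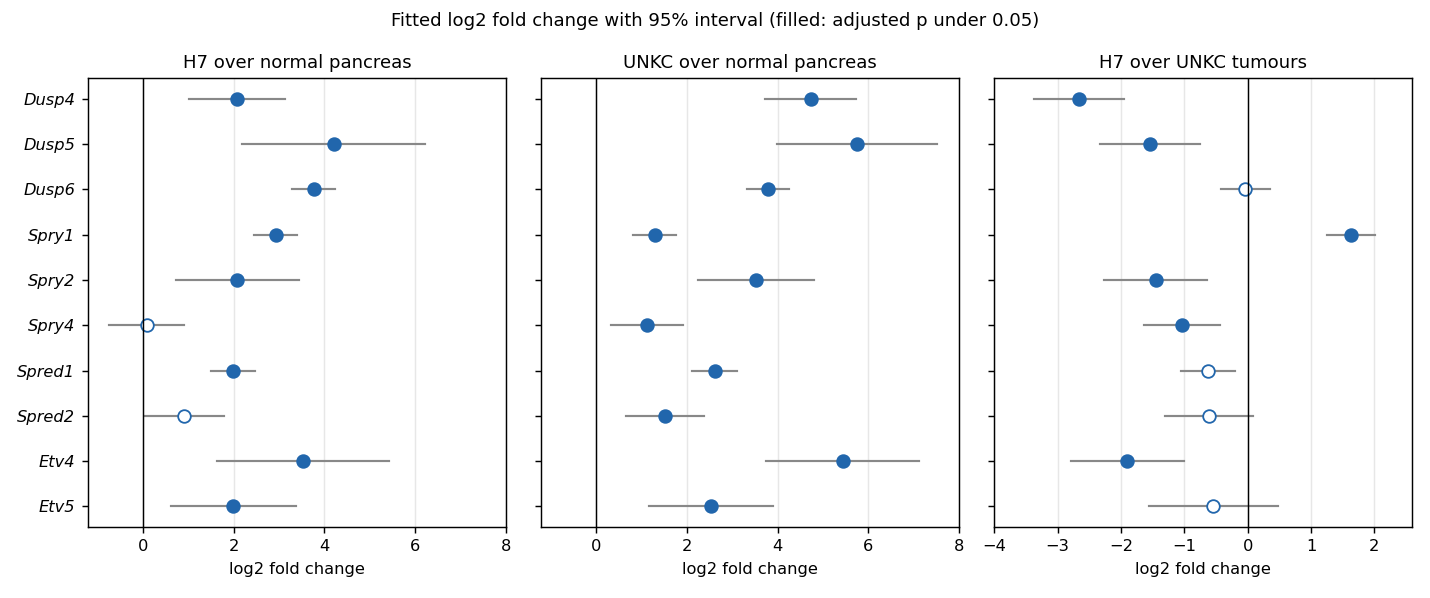
Log2 fold change (points) with 95% interval (lines) of each feedback gene in H7 against normal pancreas, UNKC against normal pancreas and H7 against UNKC, from the edgeR fit; filled points passed an adjusted p of 0.05. Dusp6 rose by a like amount in both tumours, and 5 genes lie to the left of 0 and Spry1 to the right of 0 as filled points in the comparison of the tumours.

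Per kilobase of gene length, which allows genes to be set beside each other, Dusp6 led in both tumours at 49.0 ± 0.597 CPM per kilobase in H7 and 50.3 ± 1.41 in UNKC (SD, n = 2 each). In H7 it was followed by Spred1 (17.1 ± 0.546) and Spry1 (15.8 ± 0.331), and the other 7 genes lay between 0.874 and 4.04. Among those 7, Spred2, Etv5, Dusp5, Dusp4 and Spry2 lay within about their spread of their neighbours. In UNKC Dusp6 was followed by Spred1 (26.5 ± 2.43), Dusp4 (20.6 ± 4.76), Dusp5 (11.04 ± 1.07), Etv4 (8.73 ± 0.174) and Spry2 (7.83 ± 0.354). Below them in UNKC, Spred2, Etv5 and Spry1 lay within about their spread of their neighbours. Spry1 came behind 2 genes in H7 and behind 8 in UNKC (5.10 ± 0.659). Spry4 was the lowest in both tumours (0.874 ± 0.133 in H7 and 1.79 ± 0.0611 in UNKC). In normal pancreas Spred1 (4.32 ± 1.09) and Dusp6 (3.62 ± 0.909) led and did not differ beyond their spread, and Dusp5 (0.2004 ± 0.283) and Etv4 (0.204 ± 0.289) were at the bottom. Dusp6 made up 46.3% and 49.0% of the summed level of the 10 genes in H7 and 34.2% and 35.9% in UNKC, against 21.6% and 23.9% in normal pancreas. The summed level itself was 104.9 and 100.9 CPM per kilobase in H7 and 150.2 and 137.2 in UNKC, against 13.8 and 17.9 in normal pancreas.

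In the authors' deposited table, 6 of the 10 genes were higher in H7 and 9 in UNKC at an adjusted p under 0.05, and 0 were lower. Over all genes with an adjusted p there, 24.5% were higher and 24.7% lower in H7, and 23.9% higher and 23.5% lower in UNKC, in the authors' deposited table. The authors' deposited table gives Dusp6 a log2 fold change of 3.51 in H7 (adjusted p = 9.47e-28). For Spry2 in H7 the authors' deposited table gives 1.08 (adjusted p = 0.132) and for Dusp5 1.84 (adjusted p = 0.0912), neither of which passed there. Spry4 in UNKC stands at 0.78 (adjusted p = 0.157) in the authors' deposited table. The call of these 3 results thus differs between the authors' table and the edgeR fit.

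The other genes of the pathway were followed in 5 lists, whose counts stand beside the shares of all genes given above (29.6% higher and 21.9% lower in H7, 29.1% and 19.3% in UNKC, and 7.14% and 11.1% in H7 relative to UNKC). The receptor list showed mixed directions. Of 12 receptor genes, 6 rose and 6 fell in H7 against normal pancreas (median log2 fold change -0.79), and 4 rose and 4 fell in UNKC (median 0.26). Egfr, the EGF receptor, rose in both (2.54 ± 0.14 in H7, adjusted p = 0.000147, and 2.27 ± 0.14 in UNKC, adjusted p = 0.000171). Met, the HGF receptor, also rose in both (2.34 ± 0.16 in H7, adjusted p = 0.000196, and 2.11 ± 0.16 in UNKC, adjusted p = 0.000267). Kit, the stem cell factor receptor, fell by 2.36 ± 0.42 in H7 (adjusted p = 0.00494) and by 1.83 ± 0.42 in UNKC (adjusted p = 0.0131) on the log2 scale, both positive with total-count scaling. Leaving out UNKC replicate 2 or Normal replicate 2 ended the call of Kit in UNKC (adjusted p = 0.0538 and 0.0579).

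The 2 receptor genes that were higher and the 4 that were lower in H7 than in UNKC split by family. Pdgfrb, the PDGF receptor gene of pericytes and fibroblasts, had 204.0 and 161.2 CPM in H7 and 29.8 and 38.7 CPM in UNKC, against 18.5 and 30.5 CPM in normal pancreas. It was higher in H7 than in UNKC by 2.41 ± 0.27 (adjusted p = 0.00343), and Pdgfra by 2.06 ± 0.34 (adjusted p = 0.0118). The fibroblast genes Col1a1, Col1a2, Dcn, Lum and Postn summed to 471 to 1066 CPM in H7 and 1258 to 2534 CPM in UNKC, against 192 to 284 CPM in normal pancreas. Of these 5 genes 1 was called higher and 0 lower in H7 than in UNKC, and the part of fibroblasts in the receptor levels was not tested. The 4 lower genes were Fgfr1, Fgfr2, Fgfr3 and Fgfr4, the FGF receptors, of which Fgfr4 was named after its values were seen. Fgfr1 had 1.67 and 4.08 CPM in H7 and 14.7 and 23.0 CPM in UNKC, against 43.0 and 56.8 CPM in normal pancreas. In H7 relative to UNKC, the log2 fold change of Fgfr1 was -2.71 ± 0.46 (adjusted p = 0.0130) and that of Fgfr2 -2.43 ± 0.27 (adjusted p = 0.00351). Both calls ended without H7 replicate 1 (adjusted p = 0.0663 and 0.0639), as did that of Pdgfra (0.0886), which also ended without UNKC replicate 1 (0.0505). Against normal pancreas Fgfr3 fell by 4.65 ± 0.48 in H7 (adjusted p = 0.000678) and by 2.44 ± 0.44 in UNKC (adjusted p = 0.00527; positive with total-count scaling) on the log2 scale.

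In the core cascade, 9 of 16 genes rose and 2 fell in each tumour against normal pancreas (medians 0.96 in H7 and 1.03 in UNKC). Hras rose by 3.39 ± 0.36 in H7 (adjusted p = 0.000687) and 3.23 ± 0.36 in UNKC (adjusted p = 0.000883). Grb2, the adaptor that links receptors to SOS, rose by 2.47 ± 0.19 in H7 (adjusted p = 0.000276) and 2.41 ± 0.19 in UNKC (adjusted p = 0.000306). Map2k1, which encodes MEK1, rose by 2.45 ± 0.48 in H7 (adjusted p = 0.00681) and 3.17 ± 0.48 in UNKC (adjusted p = 0.00288). Without Normal replicate 1 or 2, Map2k1 was at 1.81 or 3.77 in H7 and 2.52 or 4.48 in UNKC, and Hras at 4.39 or 2.86 in H7 and 4.22 or 2.69 in UNKC. The RAS activator Sos2 fell by 0.70 ± 0.18 in H7 (adjusted p = 0.0212) and by 0.60 ± 0.18 in UNKC (adjusted p = 0.0378) on the log2 scale, and was positive in both with total-count scaling. The calls of Sos2 ended with H7 replicate 1, H7 replicate 2 or UNKC replicate 1 left out, and in UNKC also with UNKC replicate 2 or Normal replicate 2 left out (adjusted p from 0.0577 to 0.178) or with the replicate block (0.0598).

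Between the tumours 1 of the 16 was higher in H7 and 0 were lower, with a median of 0.05, and 1 of 16 is near the 7.14% of all genes that were higher. Braf, a RAF kinase gene, had 36.6 and 34.5 CPM in H7 and 25.4 and 24.0 CPM in UNKC, against 31.0 and 35.3 CPM in normal pancreas. It was higher in H7 than in UNKC by 0.52 ± 0.14 (adjusted p = 0.0477), with no overlap between the tumours. The call ended with any 1 of the 4 tumour libraries left out (adjusted p from 0.182 to 0.277).

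Of 10 relatives of the feedback genes, 9 were tested and Spry3, with 0 reads in all 6 libraries, was not. In H7 against normal pancreas 2 rose and 2 fell, and in UNKC 3 rose and 0 fell, with medians of 0.05 and 1.38 (-0.29 and 0.80 with Dusp2, which had no reads in normal pancreas, at its bound against 3 fragments). Dusp7, a close relative of Dusp6, rose by 1.75 ± 0.25 in H7 (adjusted p = 0.00220) and 1.38 ± 0.25 in UNKC (adjusted p = 0.00559). Dusp1, an immediate early phosphatase gene, fell by 0.76 ± 0.19 on the log2 scale in H7 (adjusted p = 0.0173) and was at -0.23 ± 0.19 in UNKC (adjusted p = 0.364), both positive with total-count scaling. The call of Dusp1 in H7 ended with any 1 of the 4 tumour libraries left out (adjusted p from 0.0525 to 0.106).

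In H7 relative to UNKC, 3 of the 9 relatives were lower and 0 higher, with a median of -1.07. Etv1, which completes the subfamily of Etv4 and Etv5, had 0.941 and 0.9499 CPM in H7 and 7.11 and 4.98 CPM in UNKC, against 0.926 and 2.86 CPM in normal pancreas. Its log2 fold change in H7 relative to UNKC was -2.67 ± 0.36 (adjusted p = 0.00577), so 2 of the 3 genes of the subfamily, Etv1 and Etv4, were lower in H7. Dusp10, a phosphatase gene for JNK and p38, was lower by -1.32 ± 0.19 (adjusted p = 0.00703). Both calls ended with H7 replicate 1 or 2 left out (adjusted p from 0.06605 to 0.0955), and that of Dusp10 without UNKC replicate 1 (0.0605). Spred3 was at -0.75 ± 0.24 (adjusted p = 0.0905).

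Other genes that restrain the pathway rose in both tumours, 8 of 9 in H7 and 7 of 9 in UNKC, and 0 fell (medians 0.95 and 1.33). Pebp1, whose product binds RAF, rose by 3.09 ± 0.18 in H7 (adjusted p = 0.000160) and 2.41 ± 0.18 in UNKC (adjusted p = 0.000268), and was higher in H7 than in UNKC by 0.68 ± 0.14 (adjusted p = 0.0218). Errfi1, a feedback inhibitor of the EGF receptor, rose by 2.61 ± 0.14 in H7 (adjusted p = 0.000139) and 2.19 ± 0.14 in UNKC (adjusted p = 0.000179). Il17rd, also called Sef, an inhibitor of FGF and ERK signalling, had 9.79 and 12.9 CPM in H7 and 32.8 and 28.4 CPM in UNKC, against 5.55 and 6.20 CPM in normal pancreas. Its log2 difference between H7 and UNKC was -1.43 ± 0.19 (adjusted p = 0.00597), a call that ended without H7 replicate 1 (adjusted p = 0.0798) or UNKC replicate 1 (0.0521). Leaving out any 1 of the 4 tumour libraries ended the call of Pebp1 between the tumours (adjusted p from 0.138 to 0.157).

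Of 12 further ERK-responsive genes, 11 rose and 1 fell in H7 against normal pancreas, and 10 rose and 0 fell in UNKC. Their median log2 fold changes were 2.95 and 3.92 (1.85 and 3.21 with Egr2 and Fosl1, which had no reads in normal pancreas, at their bounds). In H7 those bounds were only 1.88-fold for Egr2 and 1.16-fold for Fosl1, and both genes are counted among the 11. Emp1, an epithelial membrane protein gene, rose by 4.49 ± 0.28 in H7 (adjusted p = 0.000177) and 4.59 ± 0.28 in UNKC (adjusted p = 0.000176). Hbegf, an EGF receptor ligand, rose by 4.05 ± 0.41 in H7 (adjusted p = 0.000560) and 5.98 ± 0.40 in UNKC (adjusted p = 0.000187). Hbegf was at 4.63 in H7 and 6.57 in UNKC without Normal replicate 1. The early response gene Egr2 was at least 3.55-fold higher in UNKC, against a floor of 3 fragments over the normal group.

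Between the tumours 5 of the 12 were lower in H7 and 0 higher, with a median of -0.73. Epha4, an ephrin receptor gene, had 1.10 and 1.40 CPM in H7 and 32.2 and 34.6 CPM in UNKC, against 3.70 and 5.73 CPM in normal pancreas. Its log2 fold change in H7 relative to UNKC was -4.73 ± 0.24 (adjusted p = 0.000487), and it was the 1 gene of this list that fell in H7 against normal pancreas. Plaur, the urokinase receptor gene, was lower in H7 than in UNKC by -2.28 ± 0.17 (adjusted p = 0.00117). The other 3 lower genes, named after their values were seen, were Ier3 (-2.17), Hbegf (-1.94) and Fos (-1.29).

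**Figure D4:**
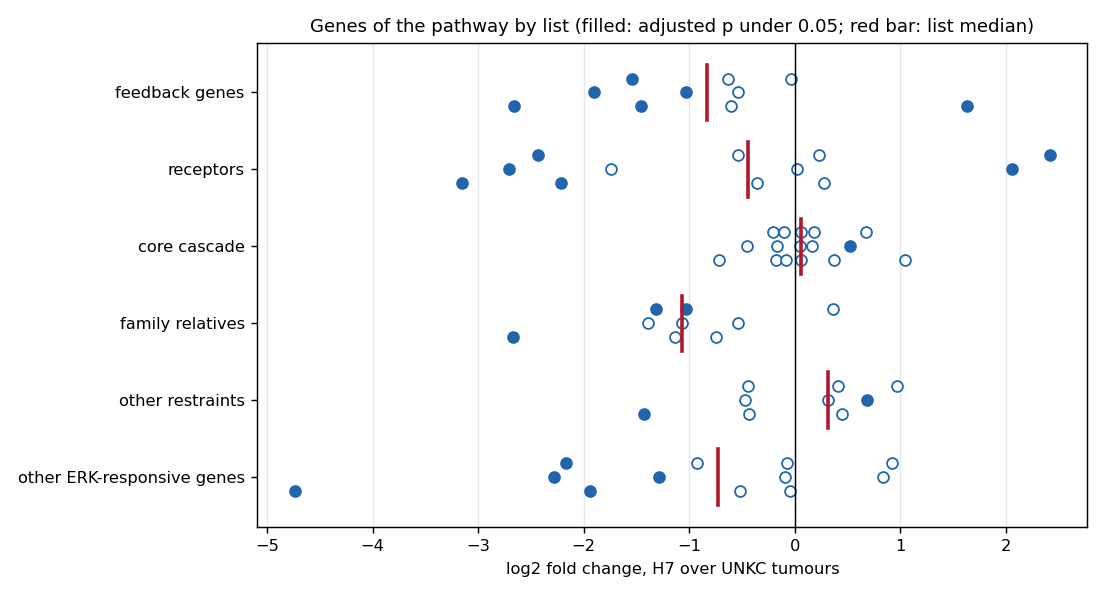
Log2 fold change in H7 relative to UNKC for every tested gene of the feedback set and of the 5 pathway lists; each point is a gene and the red bar is the median of its list. The median is -0.83 for the feedback genes, 0.05 for the core cascade and -0.73 for the other ERK-responsive genes.

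Marker RNA of several cell types that could carry these genes also differed between the tumours, while islet sums overlapped. The 5 epithelial genes Krt8, Krt18, Krt19, Epcam and Cdh1 summed to 374 to 383 CPM in H7 and 897 to 1062 CPM in UNKC. Their sum in normal pancreas was 153 to 213 CPM. Of the 5, 3 were lower in H7 than in UNKC and 0 higher, where 11.1% of all genes were lower and 7.14% higher. By the same test 2 of 4 macrophage genes were higher in H7, and 2 of 6 endothelial and 2 of 3 B cell genes were lower. In the islet, T cell and adipocyte lists 0 genes passed between the tumours. Macrophage genes (4) summed to 349 to 377 CPM in H7 and 152 to 166 CPM in UNKC, against 32.4 to 57.3 CPM in normal pancreas. Endothelial genes (6) summed to 37.7 to 52.2 CPM in H7 and 67.2 to 106.2 CPM in UNKC, against 80.1 to 99.2 CPM in normal pancreas, where Cldn5 was at 0. Islet genes (4) summed to 10.1 to 61.5 CPM in H7 and 13.3 to 40.8 CPM in UNKC, against 263 to 592 CPM in normal pancreas. T cell genes (3) summed to at most 6.95 CPM in any library, and Cd3d was at 0 in normal pancreas. B cell genes (3) reached at most 0.218 CPM in H7 and 2.55 CPM in UNKC, against 28.6 CPM in normal pancreas. Adipocyte genes (3) reached 0.0257 CPM in H7, where Adipoq and Lep were at 0, and 1.63 CPM in UNKC, against 62.5 CPM in normal pancreas. The part of these cell types in the levels of the feedback genes was not tested.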

How the data were processed

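RNA from 6 samples, 2 labelled H7 tumour, 2 UNKC tumour and 2 normal pancreas, was analysed from the deposited files. Per the submitters' processing notes, STAR, featureCounts, DESeq2 1.18.1 and the mm10 build were used. As deposited by the authors, per-sample files hold raw whole-number read counts for 27179 gene IDs, with about 2 counts per fragment (median ratio 1.98 to 2.00). The authors' 2 comparison tables hold fragment counts, TPM computed with gene length, log2 fold changes and p-values with adjusted p-values. Symbols came from those tables for 16286 IDs and from RefSeq for 9355, and 1538 were unnamed.

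Counts were scaled with TMM factors (2.07 to 2.23 in tumours, 0.179 and 0.256 in normal pancreas), filtered with filterByExpr and fitted over all 6 libraries with edgeR 4.0.16 (limma 3.58.1, R 4.3.3). DESeq2 1.42.0 was an alternative. Python 3.11.15, pandas 2.3.3, SciPy 1.17.1 and matplotlib 3.10.9 made tables, intervals and figures. Each ± on a log2 fold change is the standard error of the fit, and n = 2 per group throughout. Counting intervals (exact binomial, 95%) and floors cover counting error only. The scripts were tested on simulated data. Named beside the 10 genes were, per list and comparison, up to 2 rises and 2 falls past the threshold with at least 5 CPM, and Etv1, Spry3, Spred3, Dusp1 and Dusp7; their values in the other tumour were added for Met, Kit, Map2k1, Grb2, Errfi1 and Emp1 after they were seen. One listed gene of the core cascade is not reported here. The members and lists were chosen with earlier results of these data known. Of 20 alternatives (scalings, filters, tests, halved or tabulated counts, thinning, a replicate block, each library left out, its partner then assumed to vary like the other groups), 1 was added after seeing the data.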

Additional observations from a re-analysis of the deposited data

Results flagged for a closer look

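For 17 genes the change against normal pancreas differed between the tumours, by the direct edgeR test of H7 against UNKC. They are the called feedback genes and the called genes that the naming rule picked for this comparison. Genes named elsewhere that also passed it were Fgfr3 (-2.21), Fgfr4 (-3.16), Hbegf (-1.94), Ier3 (-2.17) and Fos (-1.29). The normal libraries do not enter the difference itself but do enter the filter and the estimate of the spread. Among the feedback genes, the log2 difference was -2.66 for Dusp4, -1.54 for Dusp5, -1.45 for Spry2, -1.03 for Spry4 and -1.90 for Etv4, each lower in both H7 libraries than in either UNKC library. Spry1 was the feedback gene with a call the other way, at 1.63, and it was higher in both H7 libraries. Among receptors the differences were 2.41 for Pdgfrb, 2.06 for Pdgfra, -2.71 for Fgfr1 and -2.43 for Fgfr2. In the cascade the difference was 0.52 for Braf. Among relatives and other restraints they were -1.32 for Dusp10, -2.67 for Etv1, -1.43 for Il17rd and 0.68 for Pebp1. The ERK-responsive genes Plaur and Epha4 stood at -2.28 and -4.73.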

How the results depend on the processing

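With 699044 and 780777 non-ribosomal reads in the normal libraries, changes of genes such as Dusp5 and Etv4 rest on 1 fragment there, and 2 libraries per group limit every test. Between the tumours the 5 lower feedback genes became 1 against a fold of 2 and 8 with the 4 libraries compared alone, and ranged from 0 to 8 with 1 library left out. With both second tumour libraries left out, the fit had 1 residual degree of freedom, too few to tell whether the calls of the feedback genes held. In the other settings 6 to 10 genes rose in H7 and 7 to 10 in UNKC. Of the single results of the 10 genes over the settings, 170, 175 and 148 kept direction and call in H7 against normal, UNKC against normal and H7 against UNKC, and 18, 25 and 28 lost the call. Total-count scaling moved the median of all genes by 3.29 in H7 and 3.36 in UNKC against normal, and put Spry4 and Spred2 past the threshold in H7 at 3.42 and 4.16. It turned Sos2 (2.55), Araf (2.46), Dusp1 (2.52), Etv1 (2.28) and Kit (0.86) positive in H7, and Kit (1.47), Fgfr3 (0.92), Sos2 (2.72), Gab1 (1.38) and Dusp1 (3.13) in UNKC. Between the tumours DESeq2 called 2621 higher and 2592 lower and the fit of 4 libraries 2318 and 2498, against 1164 and 1817. Against a fold of 2, 2785 higher and 2173 lower passed in H7 against normal, 2633 and 1714 in UNKC against normal and 344 and 851 between the tumours, and with tumours thinned to 739910 reads 2616 and 2575, 2675 and 2470, and 453 and 736. With total counts they were 12709 and 524, 13498 and 312, and 648 and 1494. With 1 tumour library left out, 185 to 552 genes were higher and 376 to 1168 lower between the tumours, and with 1 normal library left out 2175 to 2180 and 2455 to 2458.

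Spry4 in H7 against normal changed sign with RLE factors (-0.076), upper-quartile factors (-0.27), DESeq2 (-0.059), 4 libraries (-0.017), the authors' table counts (-0.10) and thinned tumours (-1.11), and ranged from -0.17 to 0.51 with 1 library left out. Spred3 did so with RLE (-0.118), upper-quartile (-0.31), DESeq2 (-0.10), 4 libraries (-0.0605), halved counts (-0.10), the table counts (-0.062) and thinning (-0.037), and ranged from -0.11 to 0.28 with 1 library left out. Etv1 in H7 ranged from -1.57 to 0.066 with 1 library left out, the highest without Normal replicate 2. Dusp6 between the tumours was 3e-04 in DESeq2. Same-numbered H7 and UNKC samples deviated together (r = 0.526), both second libraries holding skeletal muscle RNA, whereas neither tumour did with normal pancreas (-0.012 and -0.023). No label says that a number marks a shared animal, day or batch, and 2 numbers cannot settle it. The replicate block gave 8, 10, 1 and 5 feedback genes, the same counts, and ended the calls of Braf between the tumours (adjusted p = 0.0763) and of Sos2 (0.0598) and Etv1 (0.0651) in UNKC against normal.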

Other observations

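For 3 feedback genes, the tested genes with the most similar profile over the 6 libraries were listed, by the root mean square difference of centred log2 CPM. Dusp6 was most like Snrpd1, an mRNA splicing protein gene (0.0463), Ldha, a lactate dehydrogenase gene (0.111), and Gpc1, a glypican gene (0.131). Spry2 was most like Arf2 (0.341), the immunoproteasome gene Psmb8 (0.364) and the tissue factor gene F3 (0.408). Etv4 was most like the tubulin gene Tuba1a (0.448), Gm12185 (0.530) and Basp1 (0.633). Etv4 had 0 and 2 reads in normal pancreas, and Snrpd1 was at 0.926 and 1.43 CPM there. Likeness involving these genes therefore rests on few normal reads. Within the feedback set, the closest pair was Spred1 and Spred2 (0.513), followed by Dusp4 and Spry2 (0.580).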
